A study of Homo sapiens with 48 samples.

Results

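The loss of XBP1 was followed in 1 clone of AMO1 cells (a human myeloma cell line derived from plasma cells) by setting 3 libraries taken after 48 h of doxycycline (Dox) against 3 libraries taken at 0 h. These 6 libraries were picked by their titles out of 48. The cells of clone 18 (genotype AMO-1 XBP1 sh4,6,7) carry several short hairpin RNAs (shRNAs) against XBP1 that Dox switches on. Both groups are the same clone, and their labels differ in the 0.2 µg/ml Dox and its duration. Whether the 0 h cells were in culture as long as the 48 h cells is not stated. The labels name it as 1 clone, so the values describe a single clone of the line. The labels call the samples biologic triplicates, and 3 libraries at 24 h and the 0 h and 48 h libraries of a further XBP1 clone, clone 1, serve below for comparison. No library with a non-targeting shRNA was analysed here, and every untreated library is labelled 0 h. What Dox, time in culture or the expression of any shRNA does to these cells therefore cannot be told apart from what the loss of XBP1 does.

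XBP1 is the transcription factor of the most conserved branch of the unfolded protein response. When unfolded proteins gather in the endoplasmic reticulum (ER), the sensor IRE1, encoded by ERN1, cuts an intron out of the XBP1 mRNA in the cytoplasm, and the spliced mRNA yields the active factor XBP1s. In plasma cells XBP1s raises genes for importing nascent chains into the ER, folding and glycosylating them, sending them to the Golgi and degrading those that fail. Myeloma cells retain this secretory machinery because they go on making antibody. Counts per gene do not distinguish the spliced from the unspliced XBP1 mRNA.

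The 6 libraries held 19177855 to 34036295 counts on genes, and values are given as CPM (counts scaled to library size) after TMM scaling, a correction for library composition. A single count was worth at most 0.0521 CPM. All 10 plasma cell markers, among them SDC1, TNFRSF17 and JCHAIN, were measured, whereas the defining markers CD2 and CD3D of T cells, CD22 and PAX5 of mature B cells, FCGR3A and MPO of myeloid cells, HBA1 and HBA2 of red cells and COL3A1 and DCN of stroma stood at 0 counts in all 6 libraries. Other members of these lists were measured. The summed level of 6 mature B cell markers ranged from 10.4 to 11.4 CPM at 0 h and from 10.3 to 10.9 CPM at 48 h, with MS4A1, CR2 and FCER2 measured and FCER2 lower (log2 fold change -0.39 ± 0.11, adjusted p = 0.0292), and that of 8 stromal and epithelial markers stayed between 3.496 and 4.36 CPM, with COL1A1, KRT18 and PECAM1 measured and not called. Of 7 T cell markers, 4 were measured and TRAC alone was higher (log2 fold change 0.40 ± 0.12, adjusted p = 0.0379), while the summed level of the 7 ranged from 17.1 to 19.05 CPM at 0 h and from 21.0 to 22.7 CPM at 48 h. A single library stood apart within its group. The third replicate at 48 h differed from its partners by a mean chi-square per gene of 13.2 and 11.6, against 2.54 between the other two and 2.87 to 5.02 among the 0 h libraries. Its place over classes of genes is given with the ribosomal and pseudogene results.

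Expression changed broadly but mostly by small amounts at 48 h. Of 15943 genes tested with edgeR's quasi-likelihood test, 2983 (18.7%) differed from 0 h at a Benjamini-Hochberg adjusted p under 0.05, of which 1265 (7.93%) were higher and 1718 (10.8%) lower. Only 180 (1.13%) changed at least 2-fold, 46 upward and 134 downward. Among protein-coding genes the 2-fold changes were 17 rises and 52 falls, and the 48 h libraries did not overlap the 0 h libraries for any of these 69 genes. Over all genes tested the groups did not overlap for 36.1%. Without the third 48 h replicate 4971 genes were called, and leaving out the third 0 h replicate, the second 0 h replicate or the second 48 h replicate gave 1635, 1905 and 1874.

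**Figure D1:**
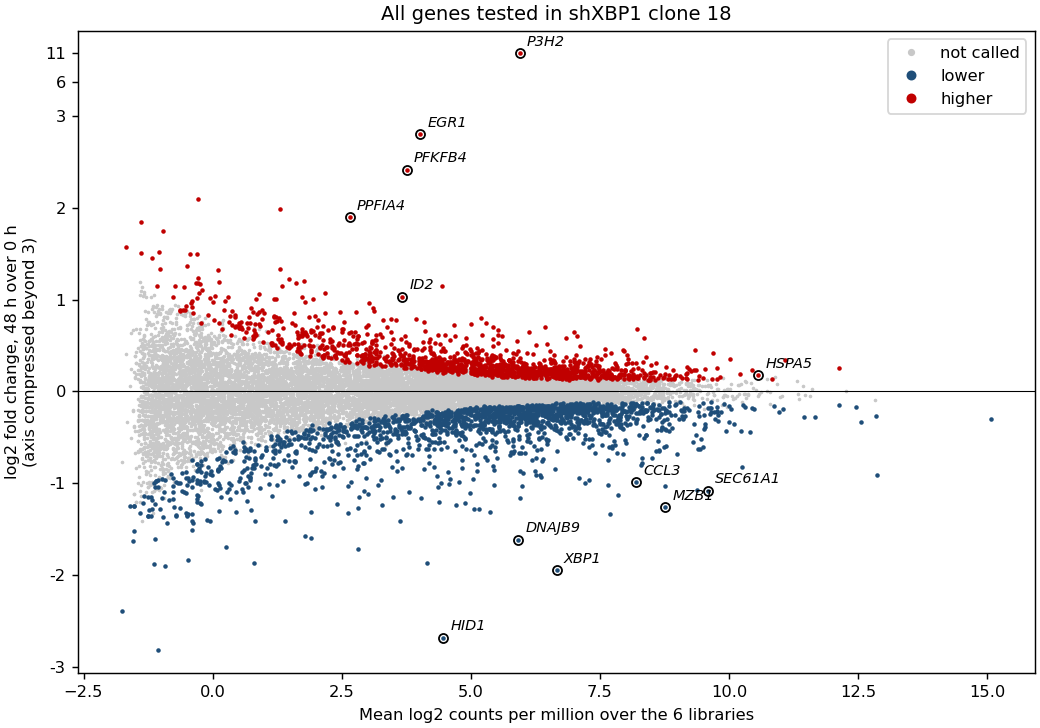
Each point is 1 of the 15943 genes tested in clone 18, with its mean log2 CPM over the 6 libraries on the horizontal axis and its log2 fold change from 0 h to 48 h on the vertical axis, which is compressed beyond 3. Blue and red points passed an adjusted p of 0.05. Most called genes lie within 1 log2 unit of 0, HID1 and XBP1 stand out among well expressed genes that fell, and P3H2 lies far above all others.

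XBP1 itself (ENSG00000100219, chromosome 22, 28794555 to 28800597, minus strand, GRCh38) read 157, 169 and 157 CPM at 0 h and 43.5, 42.7 and 40.9 CPM at 48 h. Every 48 h library lay below every 0 h library, and the fall was deep (log2 fold change -1.95 ± 0.049, adjusted p = 7.19e-12; the error here and below is the standard error, SE). ERN1, the gene of IRE1, read 396, 391 and 390.1 CPM at 0 h and 329, 316 and 321 CPM at 48 h and fell by less (log2 fold change -0.30 ± 0.039, adjusted p = 0.000124). IRF4, a transcription factor that sustains myeloma cells, read 1537, 1560.0 and 1519 CPM at 0 h and 1534, 1535 and 1422 CPM at 48 h. Its groups overlapped and the test did not call a change (log2 fold change -0.054 ± 0.04, adjusted p = 0.383). In a bulk library fewer cells of a type and less RNA per cell cannot be told apart.

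Several genes of the secretory route were among the 15 named falls. HID1 (ENSG00000167861, chromosome 17, 74950742 to 74973166, minus strand), a Golgi protein needed to form secretory granules, read 41.3, 35.7 and 40.5 CPM at 0 h and 5.94, 5.94 and 6.48 CPM at 48 h, a deeper fall than that of XBP1 (log2 fold change -2.68 ± 0.086, adjusted p = 1.37e-10). DNAJB9, an ER co-chaperone that binds both BiP and IRE1, read 90.5, 94.6 and 90.1 CPM at 0 h and 31.8, 31.8 and 27.3 CPM at 48 h (log2 fold change -1.62 ± 0.061, adjusted p = 8.11e-10). BHLHA15, the transcription factor MIST1 of secretory cells, was expressed at a low level and read 7.10, 4.87 and 5.57 CPM at 0 h and 1.91, 1.91 and 1.92 CPM at 48 h (log2 fold change -1.60 ± 0.16, adjusted p = 1e-05). FICD, the ER enzyme that adds and removes AMP on BiP, read 17.1, 17.98 and 19.2 CPM at 0 h and 6.20, 6.77 and 7.53 CPM at 48 h (log2 fold change -1.41 ± 0.093, adjusted p = 1.75e-07). That the groups did not overlap for these 4 genes was a condition of the rule that named them.

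TMEM165, a Golgi manganese transporter needed for glycosylation, fell from 59.2 ± 3.76 CPM (SD, n = 3) at 0 h to 24.01 ± 1.68 at 48 h, with a log2 fold change of -1.32 ± 0.066. SLC38A10, an amino acid transporter, fell by a similar amount (-1.28 ± 0.088). PXDN, a peroxidase of the extracellular matrix, fell by 1.57 ± 0.15 on the log2 scale, and the potassium channel subunit KCNAB1 showed -1.32 ± 0.16, both at levels below 6 CPM. CCL3L3, a chemokine gene nearly identical to CCL3, fell as well (-1.29 ± 0.08), with reads that may be shared between the copies. The remaining named falls were the immunoglobulin variable genes IGHV3-23 (-1.34 ± 0.16) and IGHV3OR16-13 (-1.41 ± 0.20) and the processed pseudogenes AL109741.2, RPL24P2 and AC103591.1.

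**Figure D2:**
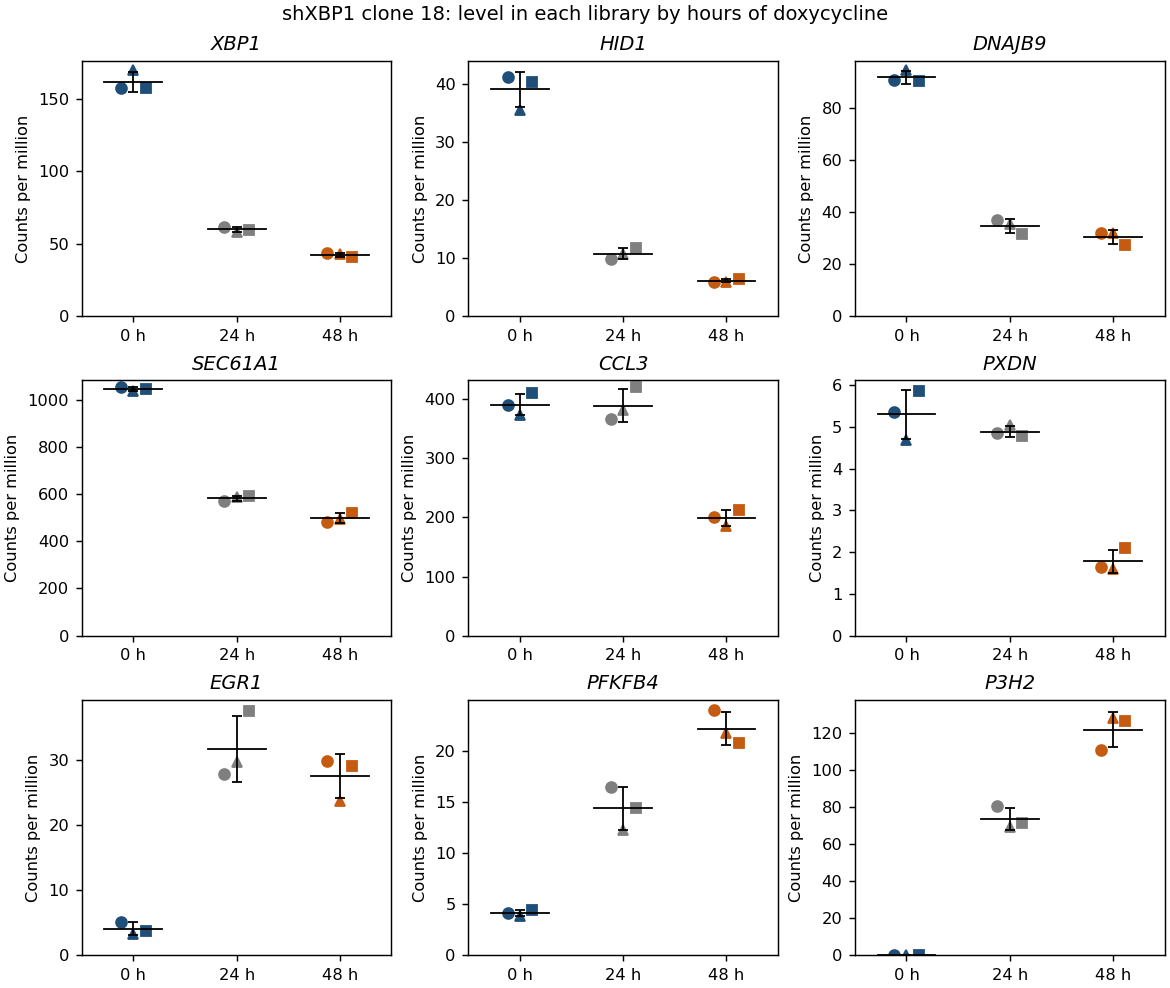
CPM of 9 genes in each library of clone 18 at 0, 24 and 48 h of Dox (circle, triangle and square are replicates 1, 2 and 3), with the mean and SD of 3 libraries, each axis starting at 0. XBP1, HID1, DNAJB9 and SEC61A1 had fallen by 24 h, CCL3 and PXDN were still at their 0 h level at 24 h and lower at 48 h, and P3H2 rose from below 0.2 CPM to above 110 CPM.

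Secretory pathway genes fell in most cases. Of 176 genes in 5 lists covering ER folding, ER-associated degradation, translocation, N-glycosylation and ER to Golgi traffic, all were tested, 118 were lower, 4 were higher and 54 were not called, against 10.8% lower among all genes. Their median log2 fold change was -0.30, against -0.0090 for all genes tested. Each of the 5 lists had a negative median, and its members fell by graded amounts that mostly stayed under 2-fold.

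Translocation into the ER fell the most, with 19 of 26 genes lower, 1 higher and a median of -0.48. SEC61A1, the channel through which nascent chains enter the ER, read 1052, 1035 and 1043 CPM at 0 h and 480.4, 493 and 521 CPM at 48 h (log2 fold change -1.08 ± 0.042, adjusted p = 9.56e-10). Its partner SEC61B read 64.3, 55.4 and 57.7 CPM at 0 h and 24.9, 28.4 and 34.6 CPM at 48 h (log2 fold change -1.02 ± 0.097, adjusted p = 7.68e-06). The signal sequence receptors SSR3 (-1.08 ± 0.047) and SSR1 (-1.03 ± 0.045) and the signal peptidase subunit SPCS2 (-1.01 ± 0.18, at no more than 3.10 CPM, a level that may be split with near-identical copies) also fell at least 2-fold, as SEC61A1 and SEC61B did. The third 48 h library, apart from the others elsewhere, read 34.6 CPM for SEC61B and lay with them for SEC61A1. HSPA13, an ATPase of the ER, fell by 0.75 ± 0.052. SRP14, a subunit of the signal recognition particle, was the exception and rose from 43.1 ± 1.96 CPM (SD, n = 3) at 0 h to 59.3 ± 3.75 at 48 h (log2 fold change 0.45 ± 0.061, adjusted p = 0.000193); it lies outside the rule for naming genes and was singled out after its values were seen.

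Traffic between ER and Golgi had the largest share of lower genes, 37 of 46, with none higher and a median of -0.34. YIF1A, a membrane protein of ER to Golgi vesicles, read 39.9, 36.4 and 35.98 CPM at 0 h and 13.4, 14.9 and 19.5 CPM at 48 h (log2 fold change -1.24 ± 0.11, adjusted p = 3.29e-06). SEC24D, a cargo-binding subunit of the COPII coat, read 263, 273 and 270.2 CPM at 0 h and 137, 137 and 128 CPM at 48 h (log2 fold change -1.02 ± 0.042, adjusted p = 1.75e-09). The cargo receptors TMED9 (-0.78 ± 0.054) and TMED10 (-0.65 ± 0.038), ARFGAP3, a regulator of coated vesicles (-0.89 ± 0.052), and KDELR3, which returns ER proteins from the Golgi (-0.83 ± 0.089), fell by less than 2-fold. All 6 genes had groups that did not overlap, as did 36.1% of all genes tested. These 6 were named as the called members with the largest change.

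N-glycosylation followed, with 25 of 40 genes lower, none higher and a median of -0.25. OSTC, a subunit of the oligosaccharyltransferase that attaches glycans to nascent chains, read 83.1, 89.6 and 82.4 CPM at 0 h and 40.8, 44.1 and 40.8 CPM at 48 h (log2 fold change -1.03 ± 0.053, adjusted p = 1.48e-08). The catalytic subunit STT3A (-0.60 ± 0.038) and the subunits RPN1 (-0.55 ± 0.037) and TMEM258 (-0.51 ± 0.061) of the same enzyme, the mannosyltransferase ALG2 (-0.74 ± 0.048) and PGM3, which makes a sugar donor (-0.62 ± 0.074), were lower too. In the ER-associated degradation list 18 of 32 genes were lower and none higher, with a median of -0.18. Its named members were the lectins ERLEC1 (-0.57 ± 0.056), EDEM2 (-0.55 ± 0.046) and EDEM1 (-0.47 ± 0.04), the ubiquitin ligase SYVN1 (-0.52 ± 0.047), DERL2 (-0.47 ± 0.055) and HERPUD1 (-0.44 ± 0.04).

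ER chaperones and foldases split. Among 32 genes 19 were lower, 3 were higher and 10 were not called, with a median of -0.37. P4HB, a protein disulfide isomerase, read 1578, 1495 and 1569 CPM at 0 h and 870.0, 875 and 907 CPM at 48 h (log2 fold change -0.82 ± 0.041, adjusted p = 1.3e-08). The proline isomerase FKBP11 (-0.94 ± 0.048), the BiP exchange factor SIL1 (-0.81 ± 0.07), SERP1 (-0.72 ± 0.043) and the oxidase ERO1B (-0.66 ± 0.088) fell alongside DNAJB9. The 3 that rose were abundant chaperones, singled out after their values were seen. HSPA5, which encodes BiP, read 1392, 1446 and 1402 CPM at 0 h and 1536, 1619.8 and 1676 CPM at 48 h (log2 fold change 0.17 ± 0.042, adjusted p = 0.0104). HSP90B1 rose by 0.26 ± 0.039 and CALR by 0.34 ± 0.037 on the log2 scale, and the 48 h libraries lay above all 0 h libraries for each. The summed level of the list therefore moved little, from between 18784 and 19059 CPM at 0 h to between 18018 and 18629 CPM at 48 h.

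**Figure D3:**
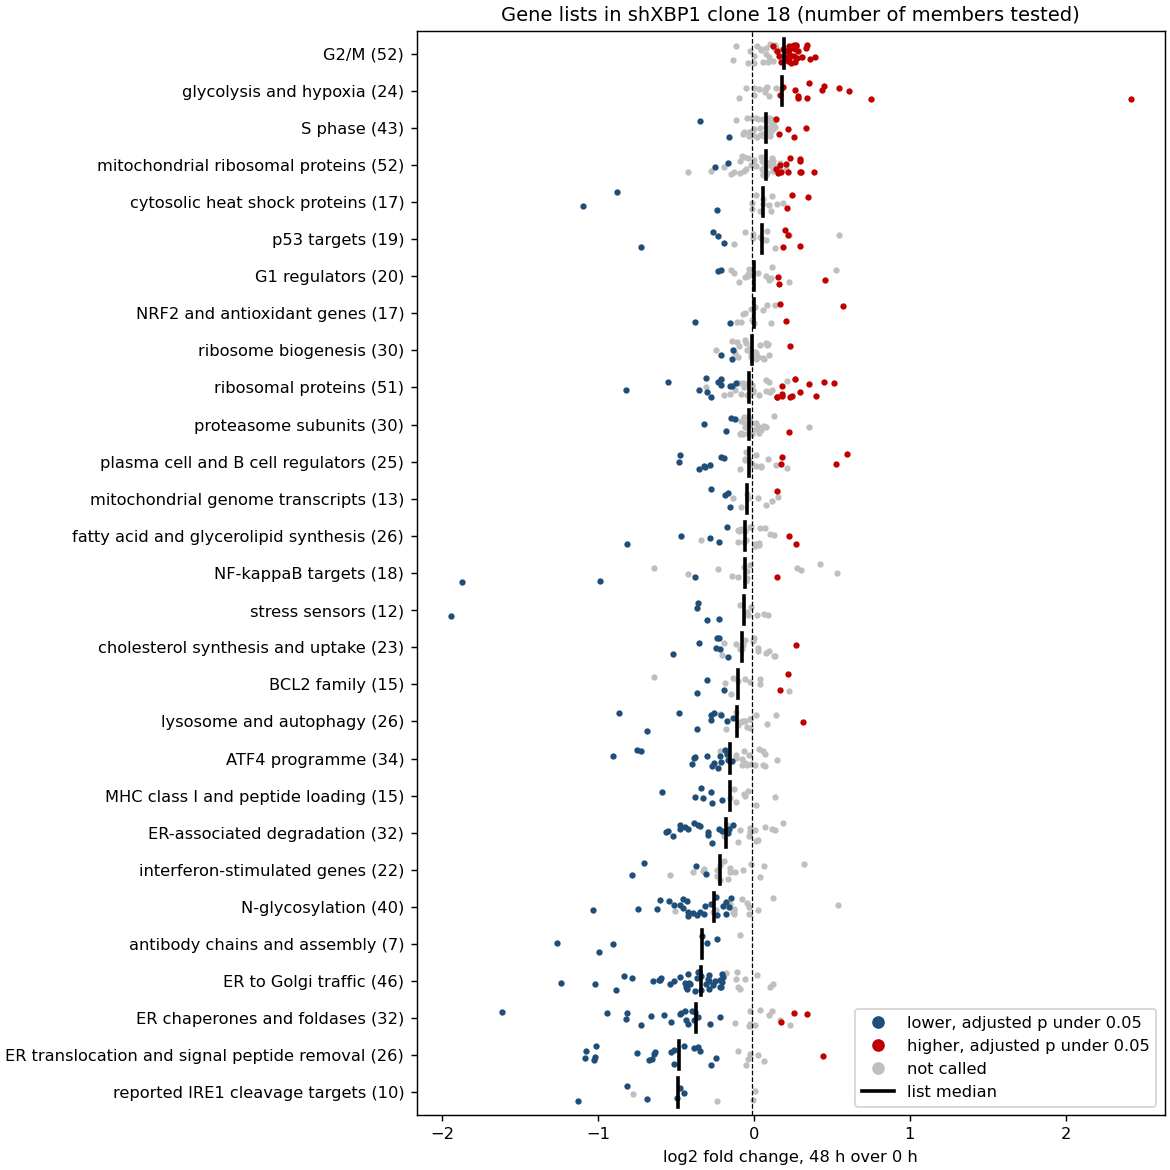
Log2 fold change from 0 h to 48 h of every tested member of 29 gene lists (number tested in brackets), coloured by call, with the list median as a black bar and the median of all genes as a dashed line. The 5 secretory lists lie to the left of 0 with medians from -0.48 to -0.18, while G2/M and glycolysis lie to the right with medians of 0.19 and 0.18, and P3H2 and EGR1 belong to no list.

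The promoters of the genes that fell are shown because XBP1s is known to bind short elements near start sites, the unfolded protein response element with the core TGACGTGG and, with the factor NF-Y, the ER stress response element, in which CCAAT and CCACG stand 9 bases apart. RefSeq promoters (GRCh38.p14, 250 bases before to 50 after each listed start site) were matched to 10417 of the 15943 genes tested and searched on both strands, and a gene was counted once if any of its start sites held the motif. TGACGTGG, which contains the shorter motif GACGTG, stood at 46 of 1151 lower genes (4%), at 6 of 874 higher genes (0.686%) and at 1.16% of all genes tested. Among the 103 lower secretory genes with a promoter it stood at 14 (13.6%), and GACGTG at 46 (44.7%) against 13.2% of all tested. The E-box CACGTG, searched for comparison, was found at 16.5% of those secretory genes and at 12.5% of all tested, and the interferon-type motif, GAAA repeated after a gap of 2 bases, at 1.94% and 3.95%. The letters CCACG alone, part of the ER stress response element, stood at 78.6% and 56.9%. The full ER stress response element was rare, at 7 lower genes (0.608%), 3 higher genes (0.343%) and 0.154% of all tested. Such matches describe the letters and not binding.

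Examples among the genes that fell follow, written 5′ to 3′ along the strand of the gene with the fixed letters of the motif in capitals, which read as the reverse complement where the motif lies on the other strand. ALG12 and CRELD2 are neighbours that run in opposite directions and share 1 element.
XBP1 (chr22:28800598-28800626, minus strand): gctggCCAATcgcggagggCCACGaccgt
FICD (chr12:108515118-108515146, plus strand): aacaaCCAATgggagtggcCCACGgcgcg
SERP1 (chr3:150546705-150546733, minus strand): tcatgCGTGGagacagcgaATTGGtgttt
ERO1B (chr1:236282178-236282206, minus strand): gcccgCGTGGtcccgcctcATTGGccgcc
ALG12 (chr22:49918549-49918577, minus strand): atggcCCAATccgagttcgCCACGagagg
CRELD2 (chr22:49918549-49918577, plus strand): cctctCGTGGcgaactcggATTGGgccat
SMIM14 (chr4:39638899-39638916, minus strand): aagagTGACGTGGtcact
SSR3 (chr3:156554154-156554171, minus strand): aacagCCACGTCAgcaag
SSR4 (chrX:153794534-153794551, plus strand): aggggCCACGTCAgtgct
KDELR3 (chr22:38468045-38468062, plus strand): cctggCCACGTCAccgcc
HYOU1 (chr11:119057381-119057398, minus strand): ccccgTGACGTGGtccaa

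The first 6 hold the ER stress response element and the other 5 TGACGTGG, and within each set the genes fell by different amounts. Beside XBP1, FICD and SSR3, SMIM14, an ER membrane protein, fell by 1.15 ± 0.13 and SSR4, a further signal sequence receptor, fell by 0.67 ± 0.071. SERP1 and ERO1B changed by -0.72 and -0.66. HYOU1, an ER chaperone, changed by -0.44 ± 0.039, the mannosyltransferase ALG12 by -0.39 ± 0.13 and CRELD2, an ER protein, by -0.39 ± 0.065. DNAJB9, which fell further than most of them, held neither full motif in the stretch before its start site, apart from the last few bases. Matches there or after the start site were counted in the shares but not traced to single genes. SMIM14, SSR4, HYOU1, ALG12 and CRELD2 lie outside the rule for naming genes and were chosen for their motif.

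Antibody transcripts were lower as well. Of 12 antibody genes 7 were measured, and 6 of these were lower with a median of -0.33, against 10.8% lower among all genes. The heavy chain constant gene IGHA1 read 10316, 8972 and 9812 CPM at 0 h and 4785, 4974 and 5909 CPM at 48 h (log2 fold change -0.91 ± 0.073, adjusted p = 1.34e-06). Its near copy IGHA2 (-0.996 ± 0.14) may share reads with it. IGKC, the kappa light chain and one of the most abundant transcripts of these cells, read 38884, 35801 and 39365 CPM at 0 h and 29396, 31002 and 33009 CPM at 48 h (log2 fold change -0.30 ± 0.053, adjusted p = 0.00134). MZB1, an ER protein that assists antibody assembly, had the deepest fall of the list and read 647, 567 and 628 CPM at 0 h and 251, 248 and 276 CPM at 48 h (log2 fold change -1.26 ± 0.057, adjusted p = 3.91e-09). JCHAIN, which joins antibody units, fell by 0.33 ± 0.04, and FAM46C, an enzyme that stabilises mRNAs of secreted proteins, fell by 0.24 ± 0.04.

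In a mixed list of plasma cell and B cell regulators, 4 of 25 tested genes were higher and 8 lower, with a median of -0.035. Among all genes 7.93% were higher and 10.8% lower. Of the 10 plasma cell markers, which include XBP1, MZB1 and JCHAIN, 6 were lower and 1 higher, with a median of -0.30. The higher one was PRDM1 (0.18 ± 0.04). TNFRSF17, the receptor BCMA, read 352, 361 and 352 CPM at 0 h and 249.8, 264 and 259 CPM at 48 h (log2 fold change -0.48 ± 0.039, adjusted p = 1.51e-06). The integrin ITGB7 (-0.48 ± 0.056), the repressor BACH2 (-0.35 ± 0.062) and the coactivator POU2AF1 (-0.32 ± 0.047) were lower, whereas KLF2 (0.60 ± 0.058), a regulator of lymphocyte homing, and CIITA (0.52 ± 0.062), the activator of MHC class II genes, were higher. SDC1 and CD38 had log2 fold changes of -0.092 and -0.059 and were not called.

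In 3 lists of the response to ER stress genes fell or were not called, and none rose. In the ATF4 programme, which the PERK branch switches on when translation is slowed, 16 of 34 tested genes were lower and none higher, with a median of -0.15. Among all genes 10.8% were lower and 7.93% higher. DDIT4, an inhibitor of growth signalling, read 112, 93.9 and 113 CPM at 0 h and 51.8, 54.4 and 65.1 CPM at 48 h (log2 fold change -0.91 ± 0.086, adjusted p = 7.68e-06). CHAC1, which degrades glutathione, read 37.03, 32.4 and 37.4 CPM at 0 h and 19.1, 20.9 and 23.7 CPM at 48 h (log2 fold change -0.75 ± 0.086, adjusted p = 4.18e-05). DDIT3, the factor CHOP, read 60.02, 52.7 and 58.3 CPM at 0 h and 34.1, 35.1 and 34.9 CPM at 48 h (log2 fold change -0.73 ± 0.061, adjusted p = 2.09e-06). ATF3 (-0.40 ± 0.082), SLC3A2 (-0.38 ± 0.068) and SLC7A11 (-0.38 ± 0.058) fell by less.

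Among 12 tested sensors and their factors 5 were lower, namely XBP1, ERN1, EIF2AK3 (-0.36 ± 0.047), which encodes PERK, CREB3 (-0.37 ± 0.062) and the protease gene MBTPS2 (-0.22 ± 0.048). XBP1 is the target of the shRNAs, so its place in this count was set by the design. Of 14 mRNAs reported as direct cleavage targets of IRE1, 10 were tested and 6 were lower, with a median of -0.49. The counts of these lists stand beside 10.8% lower and 7.93% higher among all genes. The 4 targets not called were TNFRSF10B (-0.0080), PER1 (0.0080), COL6A1 (-0.24 ± 0.31) and PDGFRB (-0.78 ± 0.26). CD59, a complement inhibitor, read 313, 324 and 313 CPM at 0 h and 143, 149 and 146 CPM at 48 h (log2 fold change -1.13 ± 0.039, adjusted p = 3.32e-10). DGAT2, an enzyme of triglyceride synthesis, fell by 0.82 ± 0.10, TGOLN2 fell by 0.68 ± 0.042, BLOC1S1 fell by 0.49 ± 0.079, PDIA4 fell by 0.48 ± 0.037 and HGSNAT fell by 0.45 ± 0.068.

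Against this background of falls, 1 gene appeared from almost nothing. P3H2 (ENSG00000090530, chromosome 3, 189956728 to 190122437, minus strand, GRCh38), a prolyl 3-hydroxylase of the ER that modifies collagen, read 0.106, 0.0310 and 0.0728 CPM at 0 h, 80.3, 69.3 and 71.1 CPM at 24 h and 111, 128 and 127 CPM at 48 h. These were 5 counts in all at 0 h and 11474 at 48 h, a ratio of 1914 with a 95% interval from counting error of 820 to 5894. No annotated gene shares its exons. In the 36 libraries of the other 3 clones P3H2 had at most 1 count, so its appearance with Dox was seen in clone 18 and in none of the others. Its neighbour TP63 had a log2 fold change of -0.011 (adjusted p = 0.888) and TPRG1 of -0.13 (adjusted p = 0.283).

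The next largest rises were those of EGR1 and of genes known to respond to low oxygen. EGR1 (chromosome 5, 138465479 to 138469303, plus strand), an immediate-early transcription factor, read 5.14, 3.26 and 3.68 CPM at 0 h and 29.8, 23.7 and 28.98 CPM at 48 h (log2 fold change 2.80 ± 0.14, adjusted p = 1.2e-08). PFKFB4 (chromosome 3, 48517684 to 48562015, minus strand), which sets the level of an activator of glycolysis, read 4.13, 3.78 and 4.41 CPM at 0 h and 23.96, 21.7 and 20.8 CPM at 48 h (log2 fold change 2.42 ± 0.099, adjusted p = 1.61e-09). PPFIA4, a liprin scaffold protein, read 2.54, 2.73 and 2.29 CPM at 0 h and 9.19, 9.79 and 9.59 CPM at 48 h (log2 fold change 1.90 ± 0.11, adjusted p = 6.57e-08). MIR210HG, the host transcript of the hypoxia-linked miR-210, read 0.954, 0.961 and 0.838 CPM at 0 h and 3.51, 3.97 and 3.55 CPM at 48 h (log2 fold change 1.99 ± 0.16, adjusted p = 1.68e-06). For all 4 the lowest 48 h library lay above the highest 0 h library, which the rule that named them required.

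ID2, an inhibitor of basic helix-loop-helix factors, read 8.79, 8.37 and 7.28 CPM at 0 h and 16.7, 17.4 and 16.2 CPM at 48 h (log2 fold change 1.03 ± 0.088, adjusted p = 2.44e-06), and the actin gene ACTA2, whose exons overlap those of FAS, rose by 1.01 ± 0.14. The other 8 of the 15 named rises were transcripts without a known protein. Of these, AC016727.1, which overlaps XPO1, and AC092794.2 are non-coding RNAs, both of which may share reads with genes they overlap, and SRRM1P3, RPL37P6, YTHDF2P1, GGNBP1, PRMT5P1 and AC011921.3 are pseudogenes.

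Many glycolysis and hypoxia genes rose. Of 24 tested, 13 were higher, none lower and 11 not called, against 7.93% higher among all genes, and the median was 0.18. PFKFB3, a relative of PFKFB4, read 29.8, 27.6 and 29.1 CPM at 0 h and 47.5, 48.1 and 50.9 CPM at 48 h (log2 fold change 0.75 ± 0.06, adjusted p = 1.38e-06). SLC2A1, the glucose transporter GLUT1, read 41.1, 37.6 and 35.5 CPM at 0 h and 56.3, 58.8 and 60.1 CPM at 48 h (log2 fold change 0.61 ± 0.061, adjusted p = 1.27e-05). NDRG1 (0.54 ± 0.05), LDHA, which makes lactate (0.45 ± 0.047), and the phosphofructokinase PFKP (0.43 ± 0.048) rose by less. These rises were there in each 48 h library, the third included.

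Genes of G2 and mitosis rose by small amounts. Of 52 tested, 29 were higher and none lower, with a median of 0.19, and the largest log2 fold change in the list was 0.39. JPT1 read 82.9, 84.9 and 83.4 CPM at 0 h and 111, 111 and 111 CPM at 48 h (log2 fold change 0.39 ± 0.042, adjusted p = 2.36e-05). The kinase NEK2 (0.33 ± 0.059), the spindle proteins CKAP2L (0.34 ± 0.06) and PSRC1 (0.36 ± 0.091), the tubulin TUBB4B (0.31 ± 0.053) and the condensin subunit SMC4 (0.28 ± 0.047) rose as well. In the fit of all 12 libraries of the clone 13 of these genes passed, and 24 did without the library labelled 72 h replicate 3, which had 0 counts of P3H2. In the S phase list 5 were higher, 2 lower and 36 of 43 not called, against 7.93% higher and 10.8% lower among all genes. There NASP (0.34 ± 0.047), CDCA7 (0.26 ± 0.063), PRIM1 (0.22 ± 0.054) and RFC2 (0.16 ± 0.052) were higher and CDC6 (-0.34 ± 0.041) and FEN1 (-0.16 ± 0.043) lower. In the G1 list CDKN2A (0.45 ± 0.085), CDKN2C (0.16 ± 0.05) and CDK2 (0.15 ± 0.044) were higher, and CCND2 (-0.23 ± 0.037) and CDK4 (-0.21 ± 0.07) lower, among 20 tested, beside the same shares over all genes.

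Ribosomal protein genes and pseudogenes moved both ways, and the third 48 h library stood apart there as it did over most classes of genes. Of 51 cytosolic ribosomal protein genes 13 were higher and 12 lower, and of 1990 pseudogenes tested 213 were higher and 211 lower. Among all genes 7.93% were higher and 10.8% lower. RPS25 (0.45 ± 0.063), RPS20 (0.40 ± 0.051) and RPLP1 (0.51 ± 0.11) were higher and RPSA (-0.82 ± 0.11), RPL10 (-0.55 ± 0.089) and RPS14 (-0.35 ± 0.068) lower. The pseudogene AL109741.2 read 31.7, 29.6 and 23.96 CPM at 0 h, 4.45 and 6.10 CPM in the first and second 48 h libraries and 12.5 CPM in the third. At 24 h it read 19.5, 5.79 and 7.66 CPM, with the first library near the 0 h level. Reads of such genes can be split between near-identical copies, so their values are uncertain.

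The place of each library was measured over the 4971 genes called without the third 48 h replicate, on a scale where 0 is the mean of 0 h and 1 the mean of the first and second 48 h libraries. The third lay at a median of 0.56 over all these genes, 0.54 over 2005 higher and 0.61 over 2037 lower protein-coding genes, 0.46 over 316 lower pseudogenes, 0.42 over 34 ribosomal protein genes and 0.61 over 38 G2/M genes. Over 125 lower secretory genes it lay at 1.05 and over 14 glycolysis genes at 1.03, level with its partners. The scale was set by the other two libraries, which by itself draws the third towards 0. The part of this library in the pseudogene, ribosomal and G2/M results, and in the protein-coding changes outside the secretory and glycolysis lists, was not tested beyond these values and the counts given without it.

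**Figure D4:**
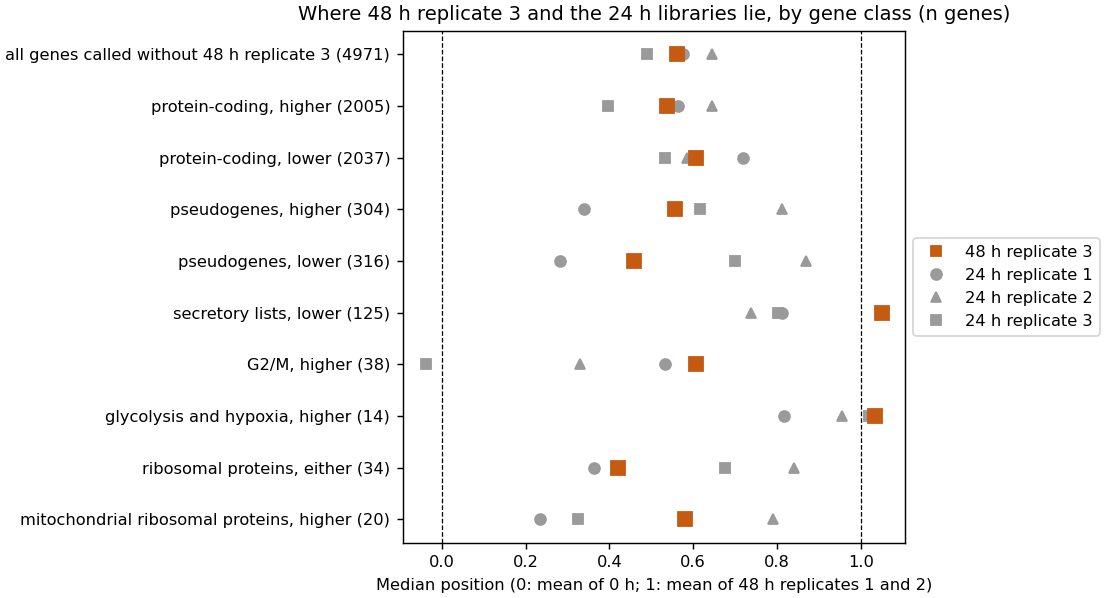
Median position of the third 48 h library (orange) and of the 24 h libraries (grey, circle, triangle and square for replicates 1, 2 and 3) between the mean of 0 h (0) and the mean of the first and second 48 h libraries (1), for classes of genes called without the third 48 h library (number of genes in brackets). The third library reaches 1 for secretory and glycolysis genes and lies between 0.42 and 0.61 for the other classes.

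Mitochondrial ribosomal protein genes leaned upward, with 12 of 52 higher and 2 lower and a median of 0.076. MRPS18A (0.38 ± 0.085) and MRPS5 (0.30 ± 0.05) were among the former, and MRPL24 (-0.25 ± 0.047) among the latter. Transcripts of the mitochondrial genome showed 1 higher and 4 lower of 13, with MT-CO1 at -0.27 ± 0.049 and MT-ND3 at 0.15 ± 0.046. Ribosome biogenesis (1 higher and 3 lower of 30) and proteasome subunits (1 higher and 4 lower of 30) were called in few members, against 7.93% higher and 10.8% lower among all genes.

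Chemokine genes fell. In the list of NF-kappaB targets 3 of 18 genes were lower and 1 higher, not far from the 10.8% lower and 7.93% higher among all genes. CCL3 read 390.1, 374 and 410.2 CPM at 0 h and 200.4, 185 and 213 CPM at 48 h (log2 fold change -0.99 ± 0.056, adjusted p = 4.45e-08). CCL4 read 2.81, 2.98 and 2.51 CPM at 0 h and 0.897, 0.585 and 0.814 CPM at 48 h (log2 fold change -1.88 ± 0.19, adjusted p = 1.5e-05). NFKBIE was lower by less (-0.38 ± 0.088) and TNFAIP3 higher (0.15 ± 0.037). Both chemokine genes have near-identical copies, so the split of their reads is uncertain.

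In the MHC class I list 7 of 15 genes were lower and none higher, among them TAPBP, which loads peptides (-0.59 ± 0.05), ERAP1 (-0.38 ± 0.046), HLA-B (-0.34 ± 0.081) and B2M (-0.27 ± 0.04). Interferon-stimulated genes, 22 of 32 tested, had 4 lower and none higher, with OASL at -0.78 ± 0.10, ISG20 at -0.71 ± 0.084, OAS1 at -0.37 ± 0.07 and STAT2 at -0.31 ± 0.041. Lysosome and autophagy genes were lower in 10 of 26 cases and higher in 1. The counts of these 3 lists stand beside 10.8% lower and 7.93% higher among all genes. SQSTM1, the autophagy receptor p62, read 646, 585 and 652 CPM at 0 h and 401, 372 and 408 CPM at 48 h (log2 fold change -0.69 ± 0.053, adjusted p = 9.29e-07).

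Lipid genes changed modestly, and their counts stand beside 10.8% lower and 7.93% higher among all genes. Of 23 cholesterol genes 7 were lower and 1 higher, with INSIG1, a brake on sterol synthesis, at -0.52 ± 0.043, HMGCS1 at -0.35 ± 0.039 and STARD4 at 0.27 ± 0.057. Of 26 fatty acid and glycerolipid genes 5 were lower and 2 higher, with FADS2 at -0.46 ± 0.072 and PLIN2, a lipid droplet coat, at 0.27 ± 0.064. Cytosolic heat shock genes split, 3 higher and 3 lower of 17. HSPA1B read 19.7, 18.4 and 19.7 CPM at 0 h and 8.41, 9.14 and 9.65 CPM at 48 h (log2 fold change -1.09 ± 0.083, adjusted p = 7.93e-07), although it shares nearly all its sequence with HSPA1A, while HSP90AA1 rose by 0.35 ± 0.041. The next lists are small, and with 7.93% of all genes higher and 10.8% lower several of them lie near that background. Of 19 p53 targets 4 were higher and 4 lower, with BTG2, an antiproliferative gene, falling most (-0.72 ± 0.042). In the BCL2 family 2 were higher and 3 lower of 15, PMAIP1 at 0.22 ± 0.063 and MCL1 at -0.19 ± 0.04 among them, and in the NRF2 list 3 were higher and 2 lower of 17, with NQO1 at 0.21 ± 0.044.

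The step from 24 h to 48 h was compared as well. Of 16326 genes tested 13 (0.0796%) differed between 24 h and 48 h, 1 higher (0.00613%) and 12 lower (0.0735%), while 1534 had an unadjusted p under 0.05 and DESeq2 called 92. The 13 became 4 without the third 24 h or the second 48 h library, 5 without the first 48 h library, 7 without the second 24 h library and 40 without the first 24 h library. None of the 176 secretory genes was called in this comparison. On the scale from 0 h to the first and second 48 h libraries, the 24 h libraries lay at medians of 0.58, 0.65 and 0.49 over the 4971 genes, and at 0.53, 0.33 and -0.038 over 38 G2/M genes. The G2/M list, with no member called between 24 h and 48 h, had a median log2 fold change of 0.17 over that step, against 0.19 from 0 h to 48 h. XBP1 (-0.49 ± 0.058 on the log2 scale, adjusted p = 0.00974) and HID1 (-0.81 ± 0.10, adjusted p = 0.0138) went on falling, and P3H2 was the gene that went on rising (0.73 ± 0.072, adjusted p = 0.002).

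PXDN, CCL3 and CCL3L3 moved late, with values at 24 h near those at 0 h. PXDN read 5.35, 4.68 and 5.86 CPM at 0 h, 4.84, 5.05 and 4.78 CPM at 24 h and 1.64, 1.60 and 2.09 CPM at 48 h. CCL3 read 366, 382 and 420.3 CPM at 24 h, on both sides of its values of 390.1, 374 and 410.2 CPM at 0 h, before its fall to between 185 and 213 CPM (-0.96 ± 0.07 from 24 h to 48 h, adjusted p = 0.00038). CCL3L3 (-1.25 ± 0.098) and CCL4 (-1.31 ± 0.20) were lower at 48 h than at 24 h too. CCL4 had begun to fall earlier, from 2.81, 2.98 and 2.51 CPM at 0 h to 1.82, 2.07 and 1.78 CPM at 24 h. The other 6 genes of the 13, which lie outside the rule for naming, were the histone gene HIST2H2BE, the non-coding RNAs AC243829.4, NEAT1 and LINC01480, TXNIP, which restrains glucose uptake, and the inflammasome gene NLRP1. They did not all move late. AC243829.4 was already lower at 24 h than at 0 h. HIST2H2BE and TXNIP stood higher at 24 h than at 0 h before they fell. HIST2H2BE was not called between 0 h and 48 h by edgeR's test (adjusted p = 0.0678).

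Clone 1, which carries shRNAs against XBP1 as well, shared part of the response. XBP1 had a log2 fold change of -2.22 there. Of the 176 secretory genes 96 were lower and 12 higher in clone 1, where 18% of all genes were lower and 20.2% higher. By the test of the difference itself the response of clone 18 was lower for 32 of the 176 and higher for 12, against 13.2% and 10.7% of all genes. SEC61A1 (-1.08), CD59 (-1.12), MZB1 (-1.16), HID1 (-2.39) and SEC24D (-0.87) fell in clone 1 with no called difference between the clones (adjusted p of the difference 0.865, 0.988, 0.693, 0.252 and 0.19). DNAJB9 fell less there (-0.76, adjusted p of the difference 0.000181), as did FICD (-0.56, 0.00124), SSR3 (-0.58, 0.00734) and ARFGAP3 (-0.40, 0.00146). EDEM1, lower in clone 18, rose in clone 1 (0.33, 3.65e-05), and HERPUD1 was not called there (0.059, 0.000101). Over all genes the responses differed for 3979 of 16644 tested (23.9%).

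The clones moved in opposite directions for several regulators. EGR1 read 73.4 ± 14.00 CPM (SD, n = 3) at 0 h and 15.5 ± 2.04 CPM at 48 h in clone 1, a log2 fold change of -2.25 where clone 18 had 2.80 (adjusted p of the difference 2.09e-07). ID2 fell by 1.06 in clone 1 (adjusted p of the difference 9.31e-07). Of the ATF4 programme 14 genes were higher and 9 lower in clone 1, and the response of clone 18 was lower for 13 and higher for 1. ERN1 rose there by 0.63, DDIT3 by 0.67, DDIT4 by 0.78 and BTG2 by 1.13. Of the G2/M list 4 genes were higher and 21 lower in clone 1, and the response of clone 18 was higher for 26 and lower for 1. PFKFB4 changed by 0.55 in clone 1 (adjusted p = 0.061) and by less than in clone 18 (adjusted p of the difference 0.00117), and of 24 glycolysis and hypoxia genes, of which 6 were higher and 7 lower in clone 1 with a median of -0.020, 13 had a higher and 2 a lower response in clone 18. Ribosome biogenesis genes were lower in 19 of 30 cases in clone 1 and proteasome subunits in 17 of 30, and the response of clone 18 was higher for 15 and 13 of them and lower for none. Of the 7 antibody genes tested 2 were higher and 3 lower in clone 1, with a median of 0.034.

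**Figure D5:**
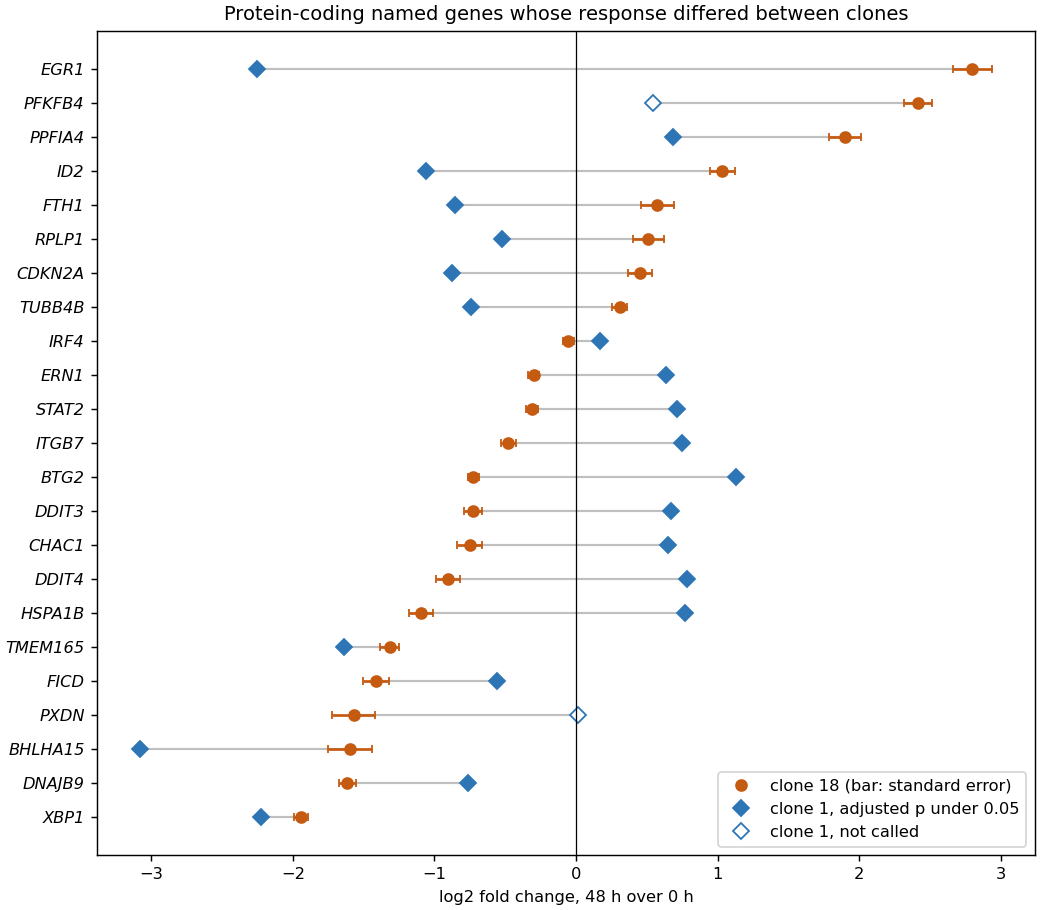
Log2 fold change from 0 h to 48 h in clone 18 (orange, bar is 1 SE) and clone 1 (blue diamonds, open where not called) for protein-coding named genes whose response differed between the clones at an adjusted p under 0.05. EGR1 lies at 2.80 in clone 18 and -2.25 in clone 1, DDIT3, DDIT4, CHAC1 and BTG2 lie on opposite sides of 0, and XBP1 lies at -1.95 and -2.22. P3H2, with 0 counts in clone 1 at 0 h and 48 h, could not be assessed by this test and is not shown.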

How the data were processed

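For 48 libraries the authors deposited gene counts (58302 genes) and, separately, TMM-scaled values in log2 CPM (18401 genes). Libraries were stranded mRNA libraries read as single ends of 50 bases. The submitters' processing notes name GSNAP, R 4.1.3, edgeR 3.32.1 and limma 3.46.0, and the builds GRCh37 and hg19. For a related experiment the study's methods name GRCh38 instead, and which build and whether strand was used for these counts are not given in the sources used here. Coordinates and gene overlaps are from GENCODE 44 on GRCh38.

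From the deposited counts the 6 libraries of clone 18 at 0 h and 48 h were fitted with edgeR 4.0.16 in R 4.3.3 (TMM, filterByExpr with a minimum count of 10 and a minimum total of 15, quasi-likelihood F test, Benjamini-Hochberg adjustment over all genes tested, threshold 0.05). Standard errors are of log2 fold changes. CPM values were TMM-scaled over 15 libraries, those of clone 18 at 0, 24 and 48 h and of clone 1 at 0 and 48 h. The difference between clones was an interaction term of clone and time over 12 libraries. Lists were described by counts and medians, with no test of a list.

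Genes were named by rule: XBP1, ERN1 and IRF4, the 15 largest rises and 15 largest falls among called genes with a mean log2 CPM above 1 and groups that did not overlap, and up to 6 called members with the largest change from each of 29 lists, or its 2 most expressed where none was called. Not all genes named by the rule are printed. The members and lists were chosen with earlier results of these data known. The fits were tested on simulated data. Alternatives were RLE factors, no filter, DESeq2 1.42.0, limma 3.58.1 on the deposited log2 table, a replicate block, all 12 libraries of the clone, and leaving out each library in turn. The fit of 11 libraries was added after the data were seen.

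Depth limits the precision of genes of few counts. 1 count was worth 0.0294 to 0.0521 CPM in the 6 libraries, and the interval for P3H2 is an exact one for counting error only.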

Additional observations from a re-analysis of the deposited data

Results flagged for a closer look

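A total of 35 named genes had a 48 h response in clone 18 that differed from that in clone 1 by the interaction test of edgeR at an adjusted p under 0.05. They comprise the genes named for the size of their change in clone 18, with XBP1, ERN1 and IRF4, and list members called in opposite directions in the clones and at least 2-fold apart. Values in brackets are the log2 fold change in clone 18 minus that in clone 1. The genes named for their size were chosen on the clone 18 values that enter this difference, so the test is not independent of that choice. P3H2 is not among the 35. It had 0 counts in every 0 h and 48 h library of clone 1, so the interaction test could not measure its difference (adjusted p = 0.99998).

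Higher in clone 18 and lower in clone 1 were EGR1 (5.06), ID2 (2.10), CDKN2A (1.34), FTH1 (1.44), TUBB4B (1.07) and RPLP1 (1.04). Lower in clone 18 and higher in clone 1 were BTG2 (-1.84), HSPA1B (-1.85), DDIT4 (-1.68), CHAC1 (-1.39), DDIT3 (-1.39), ITGB7 (-1.21), STAT2 (-1.01) and ERN1 (-0.92). The hypoxia-linked genes PFKFB4 (1.89), PPFIA4 (1.23) and MIR210HG (0.94) rose in clone 18 and had smaller positive values in clone 1. The ER genes DNAJB9 (-0.84) and FICD (-0.84) fell further in clone 18, while BHLHA15 (1.49), XBP1 (0.29) and TMEM165 (0.34) fell further in clone 1. The 0 h libraries of clone 1 were uneven for CDKN2A (mean 36.7, SD 16.3 CPM) and BHLHA15 (mean 8.01, SD 4.06 CPM), so the size of their clone 1 falls is uncertain. PXDN (-1.57) fell in clone 18 and had a clone 1 log2 fold change of 0.012. IRF4 (-0.21) was not called in clone 18 and was higher in clone 1, at 0.17.

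Pseudogenes and non-coding RNAs made up the rest. AC011921.3 (0.78), AC016727.1 (1.03), AC092794.2 (1.02), GGNBP1 (1.43), PRMT5P1 (1.36), RPL37P6 (1.05), SRRM1P3 (1.26) and YTHDF2P1 (1.12) rose in clone 18 and were not called in clone 1, and AC103591.1 (-0.73), AL109741.2 (-1.94) and RPL24P2 (-1.68) fell in clone 18, of which AC103591.1 also fell in clone 1 (-0.57). Over pseudogenes the third 48 h library of clone 18 lay between the 0 h libraries and its partners, as given with the ribosomal results, and its part in these differences was not tested.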

How the results depend on the processing

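The falls of the secretory pathway, the XBP1 value and the count of glycolysis genes stayed within 1.5 times of the reported size under every alternative run, and no result and no named gene reversed. With RLE factors 3007 genes changed, with no filter on low counts 3292, with DESeq2 2548 and 2544 with limma on the log2 values. In the fit of all 12 libraries of the clone 974 genes changed (384 higher, 590 lower, 111 at least 2-fold), with 13 G2/M genes higher, and 63 of 187 named genes lost their call. Without the library labelled 72 h replicate 3, which had 0 counts of P3H2 where the others of the clone on Dox had 2514 to 4499, 2223 changed and 22 named genes lost their call; this choice was made after seeing the data. DESeq2 put 90 genes past 2-fold. Between 24 h and 48 h the count was 191 with no filter, 92 with DESeq2 and 78 with a replicate block. The cause of these shifts was not tested.

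Leaving out each library in turn gave 1635 to 4971 changed genes, 639 to 2416 higher, 996 to 2555 lower and 146 to 311 at least 2-fold, with the largest counts without 48 h replicate 3 and the smallest without 0 h replicate 3. Without 0 h replicate 2 and without 48 h replicate 2, 1905 and 1874 genes changed. The secretory pathway kept 104 to 125 lower genes, G2/M 20 to 38 and glycolysis 10 to 14 higher genes, and the XBP1 log2 fold change ran from -1.96 to -1.91. The count between 24 h and 48 h ran from 4 to 40, falling to 4 without 24 h replicate 3 or 48 h replicate 2, 5 without 48 h replicate 1 and 7 without 24 h replicate 2, and rising to 40 without 24 h replicate 1. The count of genes that differed between the clones ran from 2754 to 4118.

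Whether the replicate numbers pair the libraries could not be settled from 3 libraries per group. The deviations of same-numbered libraries correlated at -0.20, 0.21 and -0.051, and the fit with a replicate block called 2698 genes, 2628 of them among the 2983. Depth limits genes of low level: at 0 h the 5 counts of P3H2 leave its ratio uncertain over 820 to 5894.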

Other observations

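Several protein-coding genes outside the lists and the naming rule also fell at least 2-fold in clone 18, and are given here as chosen after their values were seen. CHPF, an enzyme of chondroitin synthesis in the Golgi, read 97.00, 81.1 and 81.4 CPM at 0 h and 33.9, 37.3 and 45.5 CPM at 48 h. GMPPB, which makes the sugar donor GDP-mannose, read 32.8, 30.8 and 32.5 CPM at 0 h and 14.4, 17.03 and 16.4 CPM at 48 h. CNPY2, an ER protein of the saposin family, read 29.7, 29.1 and 28.2 CPM at 0 h and 13.6, 13.9 and 16.1 CPM at 48 h. All 3 also fell in clone 1, where their log2 fold changes were -1.96, -0.80 and -0.75, against -1.16, -1.01 and -1.003 in clone 18.

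SMIM14 moved in opposite directions, with -1.15 in clone 18 and 1.000 in clone 1 (adjusted p of the difference 1.88e-05). KIAA0513 read 26.9, 27.2 and 29.1 CPM at 0 h and 13.2, 13.9 and 13.7 CPM at 48 h in clone 18, a log2 fold change of -1.04, where clone 1 had 0.036 (adjusted p of the difference 9.14e-05).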
